A study of Mus musculus with 12 samples.

Results

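The 10 genes Slc4a8, Samsn1, Anxa3, Rabgap1l, Nudt17, Adcy6, Atmin, Arc, Pou4f1 and Clu were followed through the culture of mouse monocytes with and without Nr4a3. They were selected on their low read counts in Nr4a3 knockout (KO) cells on day 2 of culture against wild-type (WT) cells on that day. They are 10 of the 47643 gene identifiers counted, and all 10 were among the 14034 genes with enough reads to be tested. Since the day 2 difference chose them, it is described here and not tested.

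Sequencing covered the messenger RNA of bone marrow monocytes from mice labelled as being on a C57BL/6 background. WT and Nr4a3 KO cells were taken as sorted, undifferentiated monocytes or after 1 or 2 days of culture with GM-CSF and IL-4, cytokines that turn monocytes into dendritic-like cells. Each of the 6 groups held 2 libraries, made per the labels from separate experiments. The labels do not say which part of Nr4a3 was deleted, or the number of mice behind each library, so p-values measure only the spread between these libraries.

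NR4A3 is a nuclear receptor with no known natural ligand, in a family with NR4A1 and NR4A2. These receptors are induced quickly by many stimuli and can bind DNA as single molecules at the NBRE, a short site with the letters AAAGGTCA. The selected genes have unlike products. Slc4a8 and Adcy6 encode membrane proteins, a sodium-driven chloride/bicarbonate exchanger and an adenylyl cyclase that makes cyclic AMP. Samsn1 encodes an SH3 and SAM domain adaptor of blood cells, Anxa3 a calcium-dependent phospholipid-binding annexin, and Rabgap1l a TBC-domain protein that switches off Rab GTPases of vesicle traffic. Atmin encodes a zinc-finger partner of the DNA damage kinase ATM that is also a transcription factor, and Pou4f1 a POU homeodomain transcription factor best known from sensory neurons. Nudt17 is a member of the Nudix hydrolases, which cleave nucleoside diphosphate linkages. Arc is an immediate-early gene best known from synapses, and Clu encodes clusterin, a secreted chaperone and apolipoprotein.

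On GRCm38 the genes lie on 7 chromosomes in the GENCODE M21 annotation, and all are protein-coding. Slc4a8 (ENSMUSG00000023032.12, chr15:100761747-100823968, plus strand), Adcy6 (ENSMUSG00000022994.8, chr15:98589973-98610076, minus strand) and Arc (ENSMUSG00000022602.14, chr15:74669083-74672570, minus strand) share chromosome 15. Pou4f1 (ENSMUSG00000048349.9, chr14:104461676-104467999, minus strand) and Clu (ENSMUSG00000022037.14, chr14:65968483-65981547, plus strand) share chromosome 14. The nearest neighbours among them, Slc4a8 and Adcy6, are 2.15 Mb apart. The others are Samsn1 (ENSMUSG00000022876.17, chr16:75858793-76022281, minus strand), Anxa3 (ENSMUSG00000029484.12, chr5:96793339-96845966, plus strand), Rabgap1l (ENSMUSG00000026721.15, chr1:160219174-160793211, minus strand), Nudt17 (ENSMUSG00000028100.11, chr3:96706067-96708562, minus strand) and Atmin (ENSMUSG00000047388.10, chr8:116943393-116960445, plus strand). Exons of Nudt17 overlap those of Pias3 on the other strand, and exons of Adcy6 and Rabgap1l overlap antisense transcripts. The values of Anxa3 share exons with an unclassified transcript on the same strand, so reads there may have been left uncounted as ambiguous.

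The promoter windows of 3 of the genes are shown. They are the 2 in which a motif matched and that of Samsn1, the lowest in GC content. Each window holds the 250 bases before the RefSeq transcription start on GRCm38.p6, 5′ to 3′ on the strand of the gene, in lower case. Capitals mark the matches found among the motifs searched, an NF-kB site that reads on the opposite strand in Slc4a8 and a STAT5 site in Atmin. The windows are chr15:100761497-100761746 (plus strand) for Slc4a8, chr16:75909267-75909516 (minus strand) for Samsn1 and chr8:116943143-116943392 (plus strand) for Atmin. The RefSeq start of Samsn1 lies inside its longer GENCODE gene model.
Slc4a8: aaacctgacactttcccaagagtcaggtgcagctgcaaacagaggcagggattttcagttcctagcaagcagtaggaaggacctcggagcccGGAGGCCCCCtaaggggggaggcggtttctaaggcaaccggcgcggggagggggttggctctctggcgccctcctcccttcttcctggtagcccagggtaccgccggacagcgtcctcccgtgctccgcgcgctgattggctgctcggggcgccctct
Samsn1: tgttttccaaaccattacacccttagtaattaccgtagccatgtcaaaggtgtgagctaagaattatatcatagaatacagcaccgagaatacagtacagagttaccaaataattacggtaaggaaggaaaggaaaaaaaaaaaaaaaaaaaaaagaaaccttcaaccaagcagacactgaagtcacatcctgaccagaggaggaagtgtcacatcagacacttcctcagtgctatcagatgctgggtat
Atmin: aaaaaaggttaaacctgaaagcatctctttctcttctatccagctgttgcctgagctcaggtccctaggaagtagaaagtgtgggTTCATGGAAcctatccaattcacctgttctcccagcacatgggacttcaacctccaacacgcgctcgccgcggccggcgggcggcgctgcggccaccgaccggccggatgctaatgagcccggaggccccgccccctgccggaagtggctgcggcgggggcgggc
RefSeq windows were matched for 6 of the 10 genes, these 3 and Rabgap1l, Nudt17 and Pou4f1, and all were searched on both strands. GC content was 38.4% in Samsn1, 62% in Atmin and 64.8% in Slc4a8, and ran up to 78% in Pou4f1. No NBRE (AAAGGTCA) and no copy of its 7-letter core AAGGTCA, which lies within it, was found in the 6 windows. Of all 32851 promoter windows of that length, 1.34% held the NBRE and 4.08% the core. The windows also held no CRE (TGACGTCA, 1.55% of all windows), no AP-1 site (TGANTCA, 6.75%) and no STAT6 site (TTCNNNNGAA, 5.85%). The STAT5 site (TTCNNNGAA, 7.02% of all windows) was in 1 of the 6 and the NF-kB site (7.25%) in 1 of the 6. A match describes the letters, and its absence says only that these letters are not in this window.

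The libraries held between 5905266 and 18447405 reads in genes, and levels are given as reads per 1000000 counted (CPM) after TMM scaling. Where a group held no read, 3 reads over the group set the bound. Nr4a3 itself was at 1287 and 1358 CPM in WT day 2 cells and at 39.0 and 19.3 CPM in KO day 2 cells (replicates 1 and 2). In KO cells on day 1 it was at 6.58 and 0 CPM, against 16.5 and 10.4 CPM in WT, so the library labelled KO day 1 replicate 1 holds 76 Nr4a3 reads where its partner holds 0. That library also stood between monocytes and day 1 on the first principal component (1.59, against 38.4 to 46.7 in the other day 1 libraries). Whether its label is right was not tested. WT monocytes replicate 2 stood apart with a summed neutrophil marker level of 3983 CPM, against 865 to 1828 in the other monocyte libraries. Xist, transcribed only from an inactive X chromosome, was at 885 and 794 CPM in replicate 1 of both genotypes on day 2 and at most at 1.01 CPM elsewhere. The day 2 replicates thus differ in sex between experiments and not between genotypes. File-name dates place day 2 cells in other experiments than monocytes and day 1 cells, so the effects of time and experiment cannot be told apart.

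**Figure D1:**
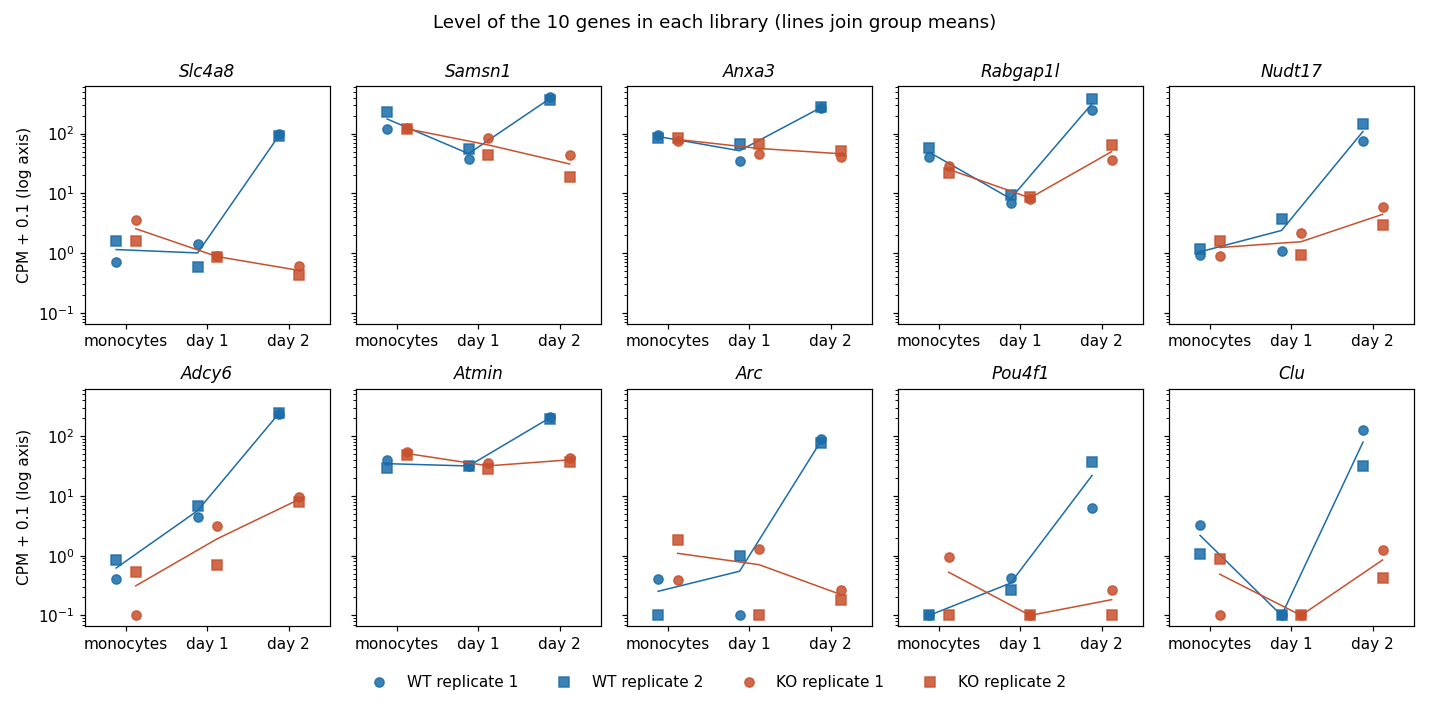
Level of each gene in each of the 12 libraries, as CPM plus 0.1 on a log axis. WT is blue and KO orange, replicate 1 is a circle and replicate 2 a square, and lines join the means of the groups. In all 10 panels both WT day 2 points lie above the other 10 points, a pattern that the choice of genes favours.

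In WT cells all 10 genes reached their highest levels on day 2, above each of the other 10 libraries. The choice of genes favours this against the KO day 2 libraries, and the share of all genes with this pattern was not counted. Among all 14034 genes, edgeR called 1778 higher in WT day 2 cells than in WT monocytes. The margin between the lower WT day 2 library and the highest of the others ran from 1.56-fold for Samsn1 to 44.4-fold for Arc. In KO cells on day 2, Slc4a8, Arc, Pou4f1 and Clu were close to undetected, Adcy6 and Nudt17 were low, and Samsn1, Anxa3, Rabgap1l and Atmin kept levels of 18.3 to 63.6 CPM. These values chose the genes and carry no test. In RNA from whole cultures, fewer cells of a type and less RNA per cell cannot be told apart.

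Among the membrane proteins, the exchanger gene Slc4a8 was at 0.613 and 1.48 CPM in WT monocytes, 1.32 and 0.490 on day 1, and 97.3 and 89.5 on day 2. In KO cells it was at 3.43 and 1.49 CPM in monocytes, 0.779 and 0.766 on day 1, and 0.500 and 0.327 on day 2. The WT rise came between day 1 and day 2, and KO cells lacked it. The day 2 means differed 226-fold, with 1554 reads in WT and 7 in KO, and the fitted log2 fold change was -7.86 ± 0.69 (SE). The cyclase gene Adcy6 began to move earlier. It was at 0.307 and 0.738 CPM in WT monocytes, 4.38 and 6.77 on day 1, and 236 and 248 on day 2. In KO cells it was at 0 and 0.425 CPM, then 3.03 and 0.602, then 9.34 and 7.85. Adcy6 was the only gene of the 10 whose KO day 2 libraries both lay above all 8 libraries of earlier stages, 4.73-fold above KO day 1 by their means. Its day 2 level in KO cells was nevertheless 28.2-fold below WT (log2 -4.82 ± 0.72, SE).

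The traffic and adaptor genes were already expressed in monocytes. Samsn1 was at 118 and 232 CPM in WT monocytes, 37.1 and 55.1 on day 1, and 414 and 362 on day 2. In KO cells it was at 123 and 118 CPM, then 85.1 and 43.9, then 43.5 and 18.3. WT levels dipped and rose past the start, while the KO mean on day 2 was 3.90-fold below that of KO monocytes. WT was 12.5-fold above KO on day 2 (log2 -3.66 ± 0.52, SE).

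Rabgap1l went through a dip in both genotypes. It was at 40.2 and 57.5 CPM in WT monocytes, 6.85 and 9.22 on day 1, and 250.5 and 383 on day 2. KO cells had 28.4 and 21.9 CPM, then 7.97 and 8.59, then 35.8 and 63.6. Day 2 exceeded day 1 by 39.4-fold in WT and 6.01-fold in KO, and WT was 6.37-fold above KO on day 2 (log2 -2.67 ± 0.37, SE). Anxa3 was at 92.9 and 85.6 CPM in WT monocytes, 35.3 and 67.8 on day 1 and 269 and 278 on day 2, against 76.4 and 83.0, 46.1 and 66.4, and 41.2 and 50.6 CPM in KO cells. The KO libraries of all stages and the early WT libraries of Anxa3 overlapped, and WT day 2 alone lay above them, 5.96-fold over KO day 2 (log2 -2.57 ± 0.34, SE).

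Among the nuclear factors and the hydrolase, Atmin had the smallest day 2 difference of the 10. It was at 39.8 and 29.4 CPM in WT monocytes, 31.1 and 32.2 on day 1 and 213 and 195 on day 2, and its KO libraries ran from 28.2 to 53.9 CPM over the 3 stages. WT was 5.08-fold above KO on day 2 (log2 -2.35 ± 0.26, SE), and the ratios of same-numbered libraries were 4.96 and 5.22. Nudt17 was at 0.843 and 1.05 CPM in WT monocytes, 0.991 and 3.59 on day 1, and 74.6 and 143 on day 2, while KO cells reached 5.84 and 2.86 CPM on day 2 from 0.786 and 1.49 in monocytes. The KO day 2 mean of Nudt17 was 3.0-fold above KO day 1, and WT was 25.0-fold above KO (log2 -4.68 ± 0.69, SE). Its 2 experiments differed, with ratios of 12.8 and 49.9.

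Pou4f1 had the fewest reads. The WT libraries held 0 and 0 reads in monocytes, 4 and 2 on day 1, and 54 and 297 on day 2, which is 6.21 and 37.6 CPM. The KO libraries held 12 and 0, 0 and 0, and 1 and 0 reads. The pooled WT to KO ratio on day 2 was 385 (95% interval 68.7 to 15258), resting on 1 KO read. It passed the filter on low counts only through WT day 2, so its tests against other groups say little.

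Arc, an activity-regulated gene, was at 91.1 and 75.5 CPM in WT day 2 cells and had 1 read in each KO day 2 library. No other library was above 1.70 CPM. The pooled ratio was 762 (95% interval 211 to 6300, on 2 KO reads). Clu was at 3.22 and 0.949 CPM in WT monocytes, at 0 reads in all 4 day 1 libraries, and at 128 and 31.1 CPM in WT day 2 cells, at least 663-fold above WT day 1. KO day 2 cells held 1.17 and 0.327 CPM (7 and 4 reads), 106-fold below WT (log2 -6.88 ± 1.28, SE). The intervals pool the libraries of a group and treat reads as independent, so they leave out the spread between libraries. Reads amplified by PCR without molecular identifiers are not independent molecules, so even the counting error may be larger.

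Adjusted for transcript length, the order of the genes in WT day 2 cells was Samsn1 at 78.6 CPM per kb of exon, Anxa3 at 75.1, Nudt17 at 48.5, Atmin at 41.9, Adcy6 at 35.7, Arc at 27.2, Clu at 23.1, Rabgap1l at 13.6, Slc4a8 at 7.17 and Pou4f1 at 4.68. Neighbours in this order whose libraries overlapped were Samsn1 and Anxa3, Nudt17 and Atmin, Arc and Clu, Clu and Rabgap1l, and Slc4a8 and Pou4f1. The replicates of WT day 2 agreed within 1.21-fold for 6 of the genes and differed 1.53-fold for Rabgap1l, 1.91-fold for Nudt17, 4.10-fold for Clu and 6.05-fold for Pou4f1. For Clu both WT and KO were higher in replicate 1, and the WT to KO ratios of same-numbered libraries were 109 and 95.1. The KO values rested on 7 and 4 reads, too few to say how alike the ratios were. In WT day 2 cells Clu was higher in replicate 1, Pou4f1 and Nudt17 in replicate 2. In KO day 2 cells Nudt17 was higher in replicate 1 (5.84 CPM, against 2.86 in replicate 2). The day 2 replicates also differed in sex.

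**Figure D2:**
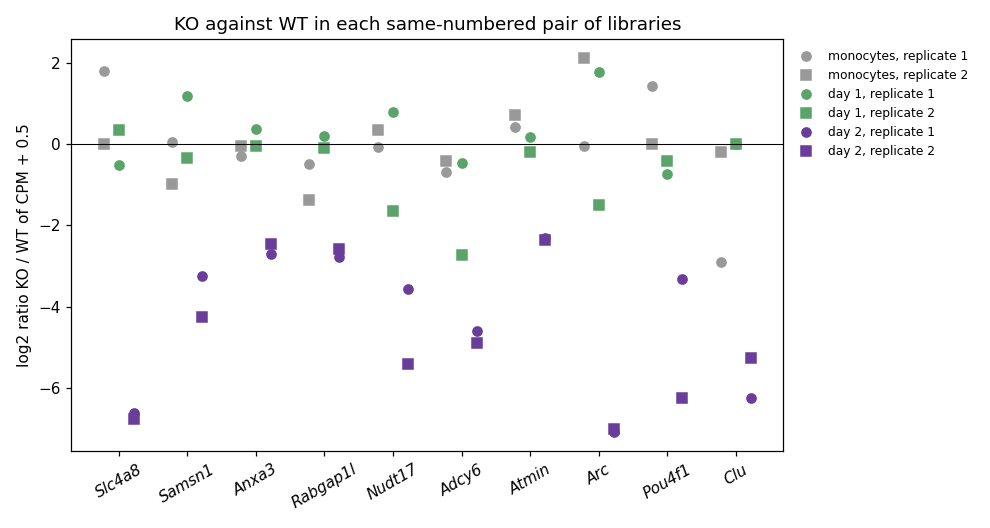
Log2 ratio of KO to WT, each as CPM plus 0.5, for the 10 genes in each same-numbered pair of libraries. Grey is monocytes, green day 1 and purple day 2, with circles for replicate 1 and squares for replicate 2. The day 2 points lie below those of the other stages for every gene, from about the level of Atmin (4.96- and 5.22-fold lower) down to Arc and Slc4a8.

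Among all 14034 genes, the fit with edgeR's quasi-likelihood test called 14 genes lower and 0 higher in KO than in WT day 2 cells at an adjusted p threshold of 0.05, which is 0.0998% of the genes tested. The 14 include some of the 10 selected genes, and since the same contrast chose these, nothing is read from their calls. The number of calls moved over 100-fold with the fit. It was 35 with the replicate number as a block, 90 with DESeq2, 142 with no filter on low counts, 3 in the compared groups only, 1558 in a paired fit on the day 2 libraries alone, and 1 or 2 on leaving out any 1 of the 4 day 2 libraries. By fitted fold change Arc stood 3rd, Pou4f1 6th, Slc4a8 9th and Clu 14th from the most negative, while Atmin stood 189th. Arc, Pou4f1 and Clu had large fold changes with wide errors, and Atmin, Anxa3 and Rabgap1l had smaller ones with narrow errors. Nr4a3 itself had a log2 fold change of -5.51 ± 1.36 (SE) and edgeR's adjusted p was 0.389. The main fit had no term for the experiment, so its spread also holds the difference between experiments, which on day 2 differed in sex.

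**Figure D3:**
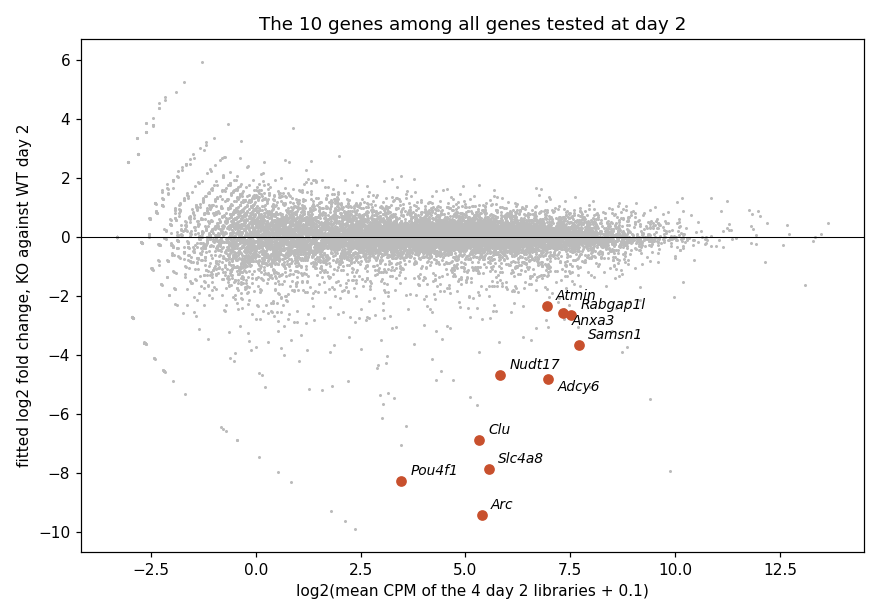
Fitted log2 fold change of KO against WT on day 2 for the 14034 genes tested, against the log2 of the mean CPM of the 4 day 2 libraries plus 0.1. The 10 selected genes are the labelled orange points, between -2.35 (Atmin) and -9.41 (Arc). The diagonal streaks at low levels are genes with few reads.

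Before day 2, the main edgeR fit called none of the 10 genes between the genotypes. With no filter on low counts Clu passed in monocytes and Adcy6 on day 1. Pou4f1 is counted among the 10 here and below, although it passed the filter only through WT day 2. The main fit called it in no contrast without day 2. In monocytes edgeR called 0 of the 10 and 0% of all genes between KO and WT, with 557 genes of 14034 at an unadjusted p under 0.05 and 5 genes called by DESeq2. Unadjusted, 3 of the 10 passed 0.05, in both directions: Rabgap1l (log2 -0.96 ± 0.35, SE), Atmin (0.57 ± 0.25) and Slc4a8 (1.27 ± 0.56), each with an adjusted p of 0.998 in edgeR. The median over the 10 was 0.05, also with Pou4f1, which had no WT read, at its bound, beside 0.00 over all genes. For Slc4a8 the difference came from replicate 1 (0.613 CPM in WT, 3.43 in KO), since replicate 2 was at 1.48 and 1.49. Its log2 fold change was 0.57 without KO monocytes replicate 1, 0.76 without WT monocytes replicate 1 and 1.99 without WT monocytes replicate 2. The call of Clu without the filter (edgeR adjusted p = 0.0465) rested on 51 WT reads and 11 KO reads.

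On day 1 edgeR again called 0 of the 10 and 0% of all genes, with 252 at an unadjusted p under 0.05 and 3 called by DESeq2. Adcy6 had the only unadjusted p under 0.05 among the 10 (log2 -1.68 ± 0.70, SE, edgeR adjusted p = 1), and it passed only with no filter on low counts (adjusted p = 0.0223). The fold change was -3.19 without KO day 1 replicate 1 and -0.86 without KO day 1 replicate 2. The KO libraries of Adcy6 on day 1, at 3.03 and 0.602 CPM, lay below both WT libraries. The higher of them was KO day 1 replicate 1, the library that stood between monocytes and day 1 on the first principal component. Of the other genes, Clu had 0 reads in all 4 libraries and the median of the remaining 9, with Pou4f1 at its bound, was 0.01. Samsn1, Anxa3, Rabgap1l, Atmin and Arc had positive log2 fold changes on day 1, and Slc4a8, Nudt17, Adcy6 and Pou4f1 negative ones.

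The first day of culture changed several of these genes. In WT cells edgeR called 4 of the 10 between day 1 and monocytes, 1 higher and 3 lower, where 21.5% of all genes passed. Rabgap1l fell by 2.60 ± 0.37 on the log2 scale (SE, edgeR adjusted p = 0.00128), and it passed in each alternative run. Adcy6 rose by 3.45 ± 0.83 (adjusted p = 0.0151), on 11 reads in monocytes and 136 on day 1. Samsn1 fell by 1.93 ± 0.48 (adjusted p = 0.0179), and Clu, with 51 reads in monocytes and 0 on day 1, was at least 18.4-fold lower (edgeR adjusted p = 0.0406). The calls for Samsn1, Adcy6 and Clu were lost on leaving out some single libraries. Samsn1 had an edgeR adjusted p of 0.0821 on omitting WT monocytes replicate 2, and 0.12 and 0.0581 on omitting WT day 1 replicates 1 and 2. Adcy6 had 0.0638 on omitting WT monocytes replicate 1, 0.0714 on omitting WT day 1 replicate 2 and 0.0833 in a fit on the compared groups only. Clu had 0.0569 with the replicate number as a block, 0.0831 in the compared groups only, 0.0925 without both libraries that stood apart, 0.123 without WT monocytes replicate 1, and 0.146 and 0.149 without WT day 1 replicates 1 and 2. Anxa3 had a log2 fold change of -0.79 ± 0.32 (SE, edgeR adjusted p = 0.106, falling to 0.0407 under the block and 0.0473 on omitting WT day 1 replicate 2). The median over the 10, the same with bounds, was -0.15, beside 0.06 over all genes.

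In KO cells Rabgap1l alone was called between day 1 and monocytes, 1 of 10 where 13.8% of all genes passed. It fell by 1.60 ± 0.36 on the log2 scale (SE, edgeR adjusted p = 0.0164). Without KO monocytes replicate 1 or 2, or KO day 1 replicate 1 or 2, the adjusted p was 0.0990, 0.0568, 0.0552 and 0.0982, and the call stood without both libraries that stood apart. Adcy6 had a log2 fold change of 2.96 ± 0.96 (SE, edgeR adjusted p = 0.0647, 0.00544 in DESeq2) and Slc4a8 of -1.66 ± 0.56 (0.0748, 0.0380 in DESeq2). Atmin had -0.69 ± 0.25 (SE, edgeR adjusted p = 0.0926, 0.0268 in DESeq2 and 0.0468 with the replicate block). Adcy6 also passed on omitting KO day 1 replicate 2 (edgeR adjusted p = 0.0267), and Adcy6, Slc4a8, Clu and Pou4f1 passed with no filter on low counts. Without both libraries that stood apart, Samsn1 (edgeR adjusted p = 0.0421) and Atmin (0.0252) passed. The median over the 10, the same with bounds, was -0.89, beside 0.11 over all genes. The Adcy6 value in KO cells depended on single libraries. It was 1.41 without KO day 1 replicate 1, 1.38 without both libraries that stood apart, and 7.33 without KO monocytes replicate 2. Slc4a8 had -0.97 without KO monocytes replicate 1. Whether the changes on day 1 differed in size between genotypes was not tested.

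How many relatives of the 10 genes passed between the genotypes on day 2 depended on the fit. From 10 lists of gene families and pathway partners holding 203 genes, 167 were tested, and the main edgeR fit called 0 of them between KO and WT on day 2, with 14 at an unadjusted p under 0.05. DESeq2 called 3 of the 167, Adora2a, Dynll2 and Nudt9, all lower in KO (1.8%, against 0.641% of all genes). With no filter on low counts edgeR also called 3, Adora2a, Ptger4 and Tbc1d4, and the genes of both calls are named after their values were seen. A paired edgeR fit on the day 2 libraries alone, chosen after seeing the data and with 1 residual degree of freedom, called 40 of 158 relatives, 23 higher and 17 lower in KO (25.3%, against 12.7% of all genes). List medians of the log2 fold change ran from -0.26 for the POU factors, of which 3 of 14 were tested, to 0.38 for the immune cell adaptors, beside 0.01 over all genes.

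Within the annexins, which bind membranes in a calcium-dependent way, Anxa2 was at 927 and 1194 CPM in WT day 2 cells and at 757.5 and 962 in KO, and Anxa4 at 1428 and 1191 against 1224 and 798. Both genes were lower in KO in each same-numbered pair, although their WT and KO libraries overlapped across pairs. For cyclic AMP signalling, the stimulatory G protein subunit gene Gnas was at 584 and 588 CPM in WT and 543 and 552 in KO, and Prkar1a, a regulatory subunit of protein kinase A, at 308 and 295 against 280 and 277. Of the transport genes, the proton channel gene Hvcn1 was at 286 and 124 CPM in WT and 443 and 267 in KO, and Slc4a7, a sodium bicarbonate cotransporter gene related to Slc4a8, at 91.8 and 59.9 against 102 and 82.5. None of these differences passed in the main fit, and Hvcn1 passed in the paired fit on the day 2 libraries.

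Atmin is known as an activator of the dynein light chain gene Dynll1, which was at 119 and 120 CPM in WT and at 136 and 141 in KO day 2 cells (log2 0.22 ± 0.41, SE, edgeR adjusted p = 1). Its paralog Dynll2, chosen after its values were seen as the relative with the smallest p, was at 108 and 158 CPM in WT and 46.7 and 58.9 in KO (log2 -1.34 ± 0.31, SE, edgeR adjusted p = 0.342), and passed in DESeq2 and in the paired fit. The adenosine receptor gene Adora2a, also chosen after its values were seen, was at 54.9 and 54.2 CPM in WT and 19.7 and 6.95 in KO (log2 -2.05 ± 0.50, SE, edgeR adjusted p = 0.366), and passed in DESeq2 and with no filter. It signals through cyclic AMP, which Adcy6 makes.

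Among the activity-regulated genes listed with Arc, Junb was at 207 and 200 CPM in WT and 243 and 198 in KO, and Fos at 8.51 and 0.632 against 8.84 and 4.01. The WT and KO libraries of both AP-1 genes overlapped. The POU genes Pou2f1 and Pou2f2 were at 38.0 and 25.5 against 31.8 and 21.3 CPM, and at 6.79 and 5.69 against 8.0 and 1.47. Lrp1 and Sorl1, receptors of the family that binds apolipoproteins, were at 643 and 364 against 775 and 513, and at 65.4 and 36.8 against 73.9 and 34.5 CPM. For the TBC-domain genes, Tbc1d2b was at 138 and 133 against 178 and 249, and Tbc1d10b at 156 and 149 against 175 and 173 CPM. The adaptor genes Skap2 and Dok2 were at 254 and 201 against 268 and 207, and at 127 and 221 against 157 and 392 CPM. Tbc1d2b and Dok2 passed in the paired fit only. The Nudix genes Nudt3 and Nudt4 were at 69.8 and 75.5 against 74.5 and 82.3, and at 67.7 and 61.6 against 45.5 and 58.2 CPM.

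**Figure D4:**
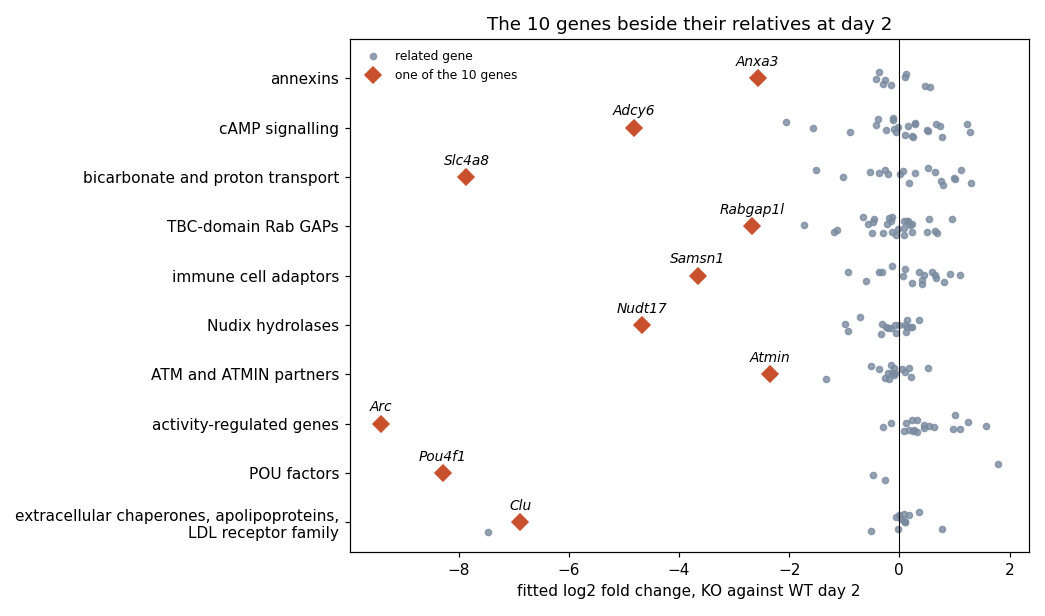
Fitted log2 fold change of KO against WT on day 2 for the 10 selected genes (orange diamonds) and the tested genes of the list each belongs to (grey points), 1 row per list. The grey points gather around 0. The grey point near -7.5 is Hspg2, named after its value was seen (1.38 and 2.40 CPM in WT day 2 cells and 0 reads in KO), whose edgeR adjusted p was 1.

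Many relatives differed between monocytes and day 2 in both genotypes. From monocytes to day 2 edgeR called 69 of the 167 relatives in WT cells, 41 higher and 28 lower (41.3%, against 22.6% of all genes), and 54 in KO cells, 31 higher and 23 lower (32.3%, against 17.5%). Both comparisons share the day 2 libraries with the rule that chose the 10 genes, and the lists were drawn up with earlier results known. The transport genes had 9 of 18 higher and 1 lower in WT and 7 higher and 1 lower in KO, and the TBC-domain genes 9 of 29 higher and 1 lower in WT and 7 higher and 2 lower in KO. The activity-regulated genes had 4 of 19 higher and 8 lower in WT, and 4 higher and 9 lower in KO. Between monocytes and day 1 the same lists together gave 48 calls in WT cells (28.7%, against 21.5% of all genes) and 33 in KO (19.8%, against 13.8%).

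None of the tested cell type markers in 13 lists was called by edgeR between KO and WT on day 2. Of all genes 0.0998% passed in that comparison. Some listed markers had too few reads to be tested, and of the T cell markers 1 of 5 was tested and of the NK cell markers 1 of 4. The 7 dendritic cell markers summed to 28015 and 32104 CPM in WT and 24993 and 26353 in KO, so both KO libraries lay below both WT libraries. The 5 classical monocyte markers summed to 648 and 259 CPM in WT and 798 and 463 in KO, the 4 macrophage markers to 210 and 114 against 343 and 197, and the 8 neutrophil markers to 352 and 926 against 731 and 1300. Each of these 3 sums was higher in KO in both same-numbered pairs. So were the sums of the 5 erythroid markers (49.6 and 13 against 102 and 25.6 CPM), the 3 eosinophil markers (17.8 and 5.18 against 30.5 and 19.1), the 5 B cell markers (18.3 and 12.4 against 34.5 and 17.1), the 4 platelet markers (20.9 and 18.3 against 26.7 and 47.5) and the 5 markers of stroma and endothelium (4.72 and 3.92 against 10.7 and 7.77). The 5 mast cell and basophil markers (3.22 and 10.9 against 4.17 and 15.1) were also higher in both pairs, while the 3 plasmacytoid dendritic cell markers were not (68.8 and 52.5 against 103 and 50.2). The 5 T cell markers summed to at most 2.67 CPM in the day 2 libraries, and of the 4 NK cell markers, which summed to at most 0.667, Ncr1 was at 0 in all 4. The part of these differences in the day 2 levels of the 10 genes was not tested.

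The profiles of the 10 genes over the 12 libraries were compared with those of 9503 genes by Pearson's r of log2 CPM. This likeness includes the day 2 libraries that chose the genes and is a description. Some of the 10 were among each other's nearest. Atmin was the most alike to Slc4a8 (r = 0.948) and to Arc (0.941), and Slc4a8 to Pou4f1 (0.930). Map3k14, which encodes a kinase of the noncanonical NF-kB pathway, was the most alike to Atmin (0.978) and stood among the nearest 2 of Slc4a8 (0.933) and Clu (0.927). It had a mean of 365 CPM in WT day 2 cells and 44.2 in KO.

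For Adcy6 the nearest were the calcium channel subunit gene Cacnb3 (r = 0.968, 488 CPM in WT day 2 and 14.5 in KO by their means) and Gadd45b (0.955). Rabgap1l was nearest to Rgs1 (0.971), a regulator of G protein signalling, and Tmem19 (0.956), Nudt17 to Nipal1 (0.976) and Poglut1 (0.966), and Samsn1 to Naxe (0.939) and Fam49a (0.927). Anxa3 was nearest to Hsf2 (0.95) and Polr3c (0.927), and Clu to Tubgcp4 (0.954). Second to the genes above were Tmem127 for Atmin (0.968), Ggta1 for Arc (0.916) and Cd200 for Pou4f1 (0.922). All these nearest genes had a lower day 2 mean in KO than in WT, but by unlike amounts. Tubgcp4 was at 79.8 CPM in WT and 57.5 in KO, and Tmem19 at 65.4 and 50.8. Rgs1 was at 103 and 8.62 CPM, and Cd200 at 49.7 and 1.83. Nr4a3 stood 8th for Adcy6 (r = 0.939), 37th for Nudt17 (0.887) and 54th for Pou4f1 (0.786), and as far as 2215th for Samsn1 (0.249). Samsn1 was already at 117.5 CPM or above in the 4 monocyte libraries, where Nr4a3 was at most at 0.929 CPM.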

How the data were processed

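Poly(A) RNA from 12 libraries (6 groups of 2) was sequenced from a stranded kit, per the labels' protocols. Reads were processed with Trimmomatic 0.35 and STAR 2.5.1b on GRCm38, per the submitters' processing notes. The authors deposited raw, whole-number counts of reads for each gene, 1 file per library, laid out as STAR writes them and not normalized. The sources used here do not give their annotation. Column 4 (reverse-stranded) was used. Reads on the other strand were 3.63% to 5.33%. Lines that name no gene (16.2% to 24.4% of reads) entered neither library sizes nor tests. Of 47643 identifiers 47224 matched a symbol in GENCODE M21.

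Counts were fitted with edgeR 4.0.16 in R 4.3.3 (TMM, filterByExpr on the groups, robust quasi-likelihood, 1 mean per group over all 12 libraries, 6 residual degrees of freedom). It tested 14034 genes in 7 contrasts, with two-sided tests, Benjamini-Hochberg adjustment over all genes and a threshold of 0.05. The common biological coefficient of variation was 0.393. The fit was also run on simulated counts that varied less between libraries than these data. That run does not show how the fit performs here. The 10 genes and all lists were chosen with earlier results of these data known. The 10 genes were tested in 4 contrasts without day 2. Ratios on 1 to 3 reads have exact 95% intervals.

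The rule for named genes took the 10 genes and Nr4a3. From each of 10 related-gene lists it took up to 2 genes that passed in KO against WT day 2, otherwise the 2 with the highest mean CPM. For each of the 10 genes it took the 2 genes with the highest Pearson correlation of log2 CPM (prior count of 2) among genes with a mean of at least 5 CPM. A gene that the rule named is not reported here. Relatives named outside the rule are marked where first given, and Xist, Pias3 and marker genes are named only as checks of the libraries and gene models. Promoter sequences came from RefSeq.

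File-name dates show that same-numbered libraries of a stage share an experiment. Their deviations from the group means correlated at 0.236 in monocytes, 0.194 on day 1 and 0.657 on day 2, so the numbers pair the samples. The main fit did not use this pairing. The files of day 1 replicate 2 are named for 16 hours, although labelled 1 day. Alternatives were RLE scaling, no low-count filter, the replicate block (4 residual degrees of freedom), DESeq2 1.42.0, unstranded counts, the compared groups only, and omission of each library or of both libraries that stood apart. The replicate block held a replicate term shared by monocytes and day 1 and a separate term for day 2. A fit on the day 2 libraries only with the replicate block was added after seeing the data.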

Additional observations from a re-analysis of the deposited data

Results flagged for a closer look

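The strand of the kit was used for all values, and the reads that fell on the other strand of the 10 genes were looked at separately. They numbered 246 in WT day 2 replicate 1 and 262 in WT day 2 replicate 2, which is 1.57% and 1.77% of the reads of the 10 genes on both strands. In KO day 2 libraries they numbered 14 and 25 (1.28% and 1.11%). In the 8 earlier libraries they ran from 0 to 62, or from 0% to 1.57%. The number on the other strand did not follow the number on the genes' own strand in every library, since WT monocytes held 19 and 62 such reads beside 3870 and 3879 on the genes' own strand. Nudt17, whose exons overlap Pias3 on the other strand, had 22 and 31 such reads in WT day 2 cells. No group could be examined for a single library far from the rest, since each group held 2 libraries.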

How the results depend on the processing

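Each group held 2 libraries, so most counts of calls moved with the choice of fit. Between KO and WT on day 2 the 14 calls became 142 with no low-count filter, 35 with the replicate block, 90 with DESeq2, 3 in the compared groups only, 44 without both libraries that stood apart, 1558 in the compared groups only with the replicate block, and 1 to 2 on leaving out 1 library. In monocytes the 0 calls became 40 with no filter, 5 with DESeq2 and 0 to 137 on leaving out 1 library, and on day 1 they became 140, 3 and 0 to 25. The 137 came without WT monocytes replicate 1 and the 25 without KO day 1 replicate 2. WT day 1 against monocytes gave 1454 in the compared groups only and 1397 to 3895 on leaving out 1 library. KO day 1 against monocytes gave 2995 with the replicate block, 2994 with DESeq2, 3308 without both libraries and 600 to 1971. WT day 2 against monocytes gave 1565 in the compared groups only and 1494 to 4453, and KO day 2 against monocytes 3846 without both libraries and 962 to 1351. Of the 10 genes, 1 passed between KO and WT in monocytes and 1 on day 1 with no filter. In WT day 1 against monocytes 2 of the 10 passed in the compared groups only and 2 to 3 on leaving out 1 library. In KO day 1 against monocytes 5 passed with no filter, 2 with the replicate block, 4 with DESeq2, 3 without both libraries and 0 to 1 on leaving out 1 library. The relatives called on day 2 became 3 with no filter, 3 with DESeq2 and 40 in the compared groups only with the replicate block. The fitted log2 fold change of Clu between KO day 2 and KO monocytes, 0.75 on 11 reads in each, turned to -0.25 on omitting KO monocytes replicate 1 and to -0.22 on omitting replicate 1 of KO day 2. It ran up to 5.95 on leaving out 1 library. The cause of these shifts was not tested, except that no filter admits more genes and leaving out a library removes samples. The replicate block changed no other call of the 10 genes than those given.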
